A study of Mus musculus with 2 samples.

Results

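The genes described here are those that run mitosis and build the kinetochore, the protein structure on each chromosome that spindle microtubules attach to. The set was defined by name: 40 listed symbols (mitotic cyclins and kinases, checkpoint, separation, spindle and cytokinesis genes), and every gene whose symbol begins with Cenp. Of the listed symbols 39 were measured, among them Sgol1 under its current symbol Sgo1, and Ccnb1 was not analysed here. With 21 Cenp genes this gave 60 of the 17874 genes measured, each by 1 probe set. Kinesins, the motor proteins of the spindle, were left out of the listed symbols, but Cenpe, which encodes a kinesin, entered through its name.

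Entry into mitosis is driven by the kinase CDK1 with cyclins A and B, helped by Polo and Aurora kinases. Kinetochores are assembled on centromeres marked by the histone variant CENP-A, a constitutive inner network of CENP proteins joins them to the microtubule-binding NDC80 complex, and a checkpoint holds back the anaphase-promoting complex (APC/C) until all chromosomes are attached. Most of these transcripts accumulate in G2 and mitosis, because their promoters are repressed by the DREAM complex in quiescent and G1 cells and activated later by B-MYB and FOXM1, often through a promoter element called CHR and nearby CCAAT boxes bound by NF-Y. Erythroid progenitors of the fetal liver divide rapidly.

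Expression was measured on 2 Affymetrix mouse arrays, 1 of cells kept for 3 h in Panserin medium and 1 of cells lysed at 0 h. Both samples were colony-forming unit erythroid (CFU-E) cells from EpoR-/- BALB/c embryos at gestational day 13.5, enriched from pools of 40 to 50 livers by lysing red cells and removing antibody-marked cells of other lineages, and both had first been held for 1 h without growth factors. The genotype label names Epo, whereas the protocol names its receptor. For the 3 h sample the treatment label reads as if supplemental growth factors were present, but the protocol says that none were added. The strain label is present for the 0 h sample alone, and the sources used here do not say whether both samples came from the same pool. No array of cells with the receptor was analysed here, so each comparison is 3 h against 0 h within cells described as receptor-null. The Epor probe set read 6.89 at 3 h and 7.08 at 0 h, and its position relative to the deleted part is unknown, so it checks nothing about the genotype. With 1 array per time there is no replicate error and no test, no difference below could be set against a spread between samples, and precision is limited by having so few arrays. In bulk RNA from enriched cells, a different share of cells in G2 and mitosis and a different amount of these RNAs per cell cannot be told apart.

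Values are log2 expression values, and differences are 3 h minus 0 h on that scale, so that 0.585 is 1.5-fold and 1 is 2-fold. Genes whose higher value was at least 5.70, the median over all genes and both arrays (called the floor here), were counted, and 9284 passed. Of the 60 mitosis and kinetochore genes 59 reached it. The exception was Cenpa, the centromeric histone variant itself, at 5.35 at 3 h and 5.51 at 0 h. Such a low signal is no evidence that Cenpa is silent. Cenpj (6.13 at 3 h and 5.53 at 0 h) reached the floor only through its 3 h value, so that it could be counted only by being higher. Of the erythroid progenitor markers 11 of 11 reached the floor on both arrays, and their values are given below with those of other cell types.

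The mitosis and kinetochore genes kept nearly the same levels over the 3 h, with a small excess of higher values. Of the 59, 41 were higher at 3 h (69.5%, against 51.5% of all genes at the floor) and 18 were lower, where 48.5% of all genes were lower. Their median difference was 0.11, with quartiles of -0.03 and 0.28, against a median of 0.01 and quartiles of -0.20 and 0.23 for all genes. At least 1.5-fold higher were 5 of the 59 (8.47%, against 6.94% of all genes), namely Ccnf, Ndc80, Cenpe, Plk1 and Cenpj. At least 1.5-fold lower was 1 (1.69%, against 4.80% of all genes), Cenpx. None reached 2-fold in either direction, where 2.00% of all genes were 2-fold higher and 0.872% were 2-fold lower. The shares past 1.5-fold and 2-fold were thus close to or under the background, and the share of higher genes was above it. All 59 lay within the central 95% of the differences of all genes, which ran from -0.72 to 0.91, and 38 lay within 1.2-fold (64.4%, against 58.0% of all genes).

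**Figure D1:**
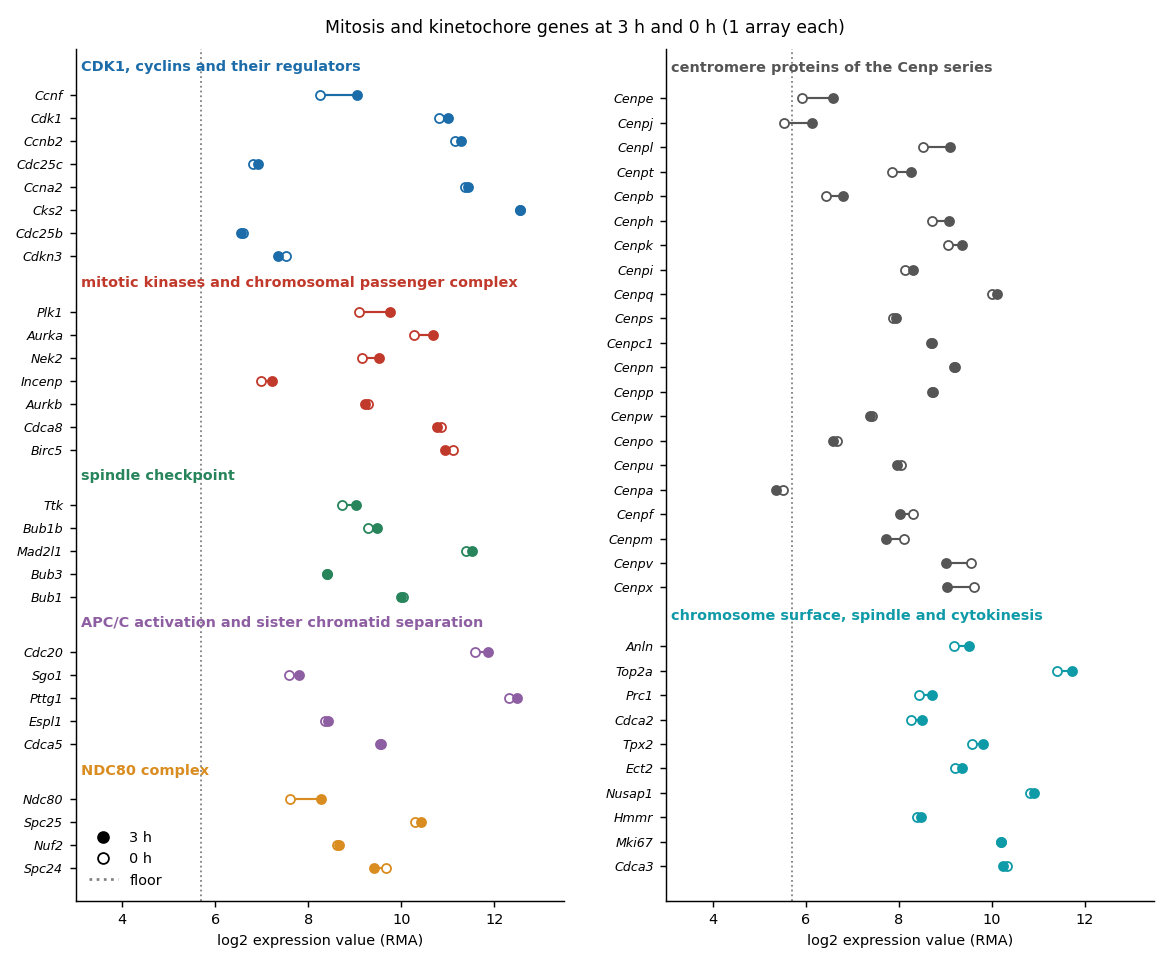
Log2 expression values (horizontal axis) of the 60 mitosis and kinetochore genes at 3 h (filled points) and 0 h (open points), 1 array each, grouped by role, with the floor of 5.70 as a dotted line. Most pairs lie close together. The widest have their 3 h point to the right in Ccnf, Plk1, Ndc80, Cenpe, Cenpj and Cenpl, and to the left in Cenpx and Cenpv.

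Genes with high signals drifted the other way over the whole array. In a subset defined with the values known, 17 of the 60 genes had a mean log2 value of at least 10, and 12 of these were higher at 3 h, against 43.3% of the 1289 genes of all kinds at that signal. Their median difference was 0.11, against -0.04 for those 1289 genes. The widest difference among the 17 was that of Aurka, at 0.41. All 6 genes past 1.5-fold had mean values under 10, as did 42 of the 59 counted genes. Among all genes at the floor, passing 1.5-fold was also rarer at high signal. Of those with a mean of 10 or more, 2.40% passed it upward and 2.64% downward, against 7.67% and 5.15% of those under 10.

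**Figure D2:**
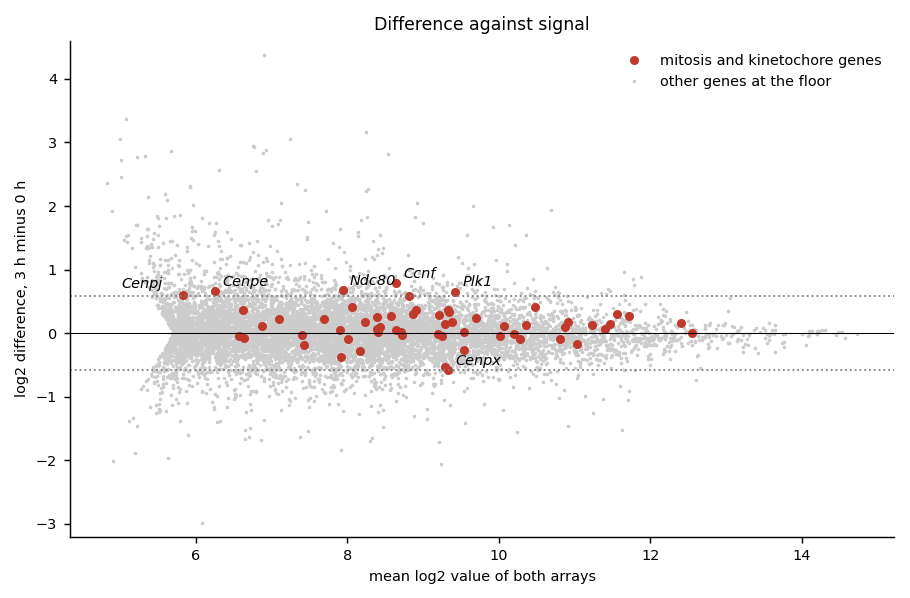
Log2 difference, 3 h minus 0 h (vertical axis), against the mean log2 value of both arrays (horizontal axis) for the 59 mitosis and kinetochore genes (red) and the other genes at the floor (grey), with dotted lines at 1.5-fold. The 6 named genes are those past 1.5-fold, and at a mean of 10 or more the red points lie between -0.17 and 0.41.

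Markers of cell types also differed between the 3 h and 0 h arrays. Beside counts of markers at the floor stand the shares of all genes there, 51.5% higher and 48.5% lower. Beside counts over all measured markers stand the 8965 of all 17874 genes that were higher. The erythroid progenitor markers were higher in 8 of 11 (median 0.09), with a sum of anti-logged values of 14872 at 3 h and 11955 at 0 h, a ratio of 1.24. Gata1 was at 10.15 at 3 h and 9.32 at 0 h and Nfe2 at 10.07 at 3 h and 8.96 at 0 h. The 3 lower markers were Myb, at 7.55 at 3 h and 8.14 at 0 h, Epor (-0.19) and Gfi1b (-0.09). Kit was nearly the same, at 9.03 at 3 h and 9.01 at 0 h. Of 17 measured granulocyte and mast cell markers 15 were higher at 3 h (median 0.55), with sums of 12749 at 3 h and 6699 at 0 h. The floor was reached by 11, but 3 of these (Camp, Lcn2 and Ngp) reached it only at 3 h and could be counted only by being higher. The 8 that reached it at 0 h were all higher, with a median of 0.63. S100a9, a neutrophil calprotectin gene, was at 11.67 at 3 h and 9.72 at 0 h. Of 16 macrophage and monocyte markers 5 reached the floor and 4 were higher (median 0.80, sums of 2761 at 3 h and 1792 at 0 h), with the lysozyme gene Lyz2 at 9.80 at 3 h and 7.98 at 0 h, and Vcam1, of island macrophages and stroma, lower at 8.25 at 3 h and 9.22 at 0 h. Over all 16, 12 were higher and the median was 0.23. The macrophage genes C1qa, C1qb, C1qc, Adgre1 and Itgam were under the floor on both arrays. Of 18 hepatocyte markers 18 reached the floor and 16 were lower at 3 h (median -0.18, sums of 114752 at 3 h and 122005 at 0 h), while the keratin genes Krt8 (0.95) and Krt18 (0.88) were higher. Of 8 megakaryocyte markers 4 were higher and 4 lower, with a median of -0.01 over all of them and sums of 438 at 3 h and 352 at 0 h, and 1 reached the floor at 0 h. The widest difference of these markers was that of Gp1bb, at 6.68 at 3 h and 4.49 at 0 h, which reached the floor only at 3 h. Of 13 lymphoid markers none reached the floor at 0 h, and 7 were higher (median 0.07, sums of 311 at 3 h and 259 at 0 h). The megakaryocyte and lymphoid counts were near the share of all measured genes. Dividing hepatoblasts and myeloid progenitors transcribe mitosis genes too, and the part of these cells in the values given here was not tested. The sum over all 60 mitosis and kinetochore genes was 59662 at 3 h and 55241 at 0 h, a ratio of 1.08.

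Promoter sequences were searched for the letters of elements through which many of these genes are known to be timed. They are printed for the 3 counted genes with the highest difference and the 1 with the lowest among those with a promoter in the reference table, from RefSeq, build GRCm38.p6, running from 250 bases before the annotated transcript start to 50 after it, 5′ to 3′ on the gene's strand. Capitals mark matches on either strand to the CHR element (TTTGAA or TTCGAA), to CCAAT, or to an E2F site (TTGGCGC or TTCCCGC), and among these 4 promoters no matches overlap. Ccnf lies at chr17:24251360-24251659 (- strand), Ndc80 at chr17:71526808-71527107 (- strand), Cenpe at chr3:135212313-135212612 (+ strand) and Cenpx at chr11:120713759-120714058 (- strand).
Ccnf: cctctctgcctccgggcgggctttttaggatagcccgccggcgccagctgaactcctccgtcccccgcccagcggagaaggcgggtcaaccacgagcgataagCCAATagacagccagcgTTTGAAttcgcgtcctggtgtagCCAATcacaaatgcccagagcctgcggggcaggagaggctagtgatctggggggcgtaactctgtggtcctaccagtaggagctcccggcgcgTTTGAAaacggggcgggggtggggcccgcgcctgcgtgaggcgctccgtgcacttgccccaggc
Ndc80: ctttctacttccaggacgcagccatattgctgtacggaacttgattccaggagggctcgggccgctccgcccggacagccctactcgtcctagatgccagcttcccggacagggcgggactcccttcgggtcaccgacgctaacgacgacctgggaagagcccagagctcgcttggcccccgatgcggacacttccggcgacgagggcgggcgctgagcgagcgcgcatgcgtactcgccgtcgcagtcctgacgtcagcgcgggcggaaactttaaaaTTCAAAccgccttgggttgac
Cenpe: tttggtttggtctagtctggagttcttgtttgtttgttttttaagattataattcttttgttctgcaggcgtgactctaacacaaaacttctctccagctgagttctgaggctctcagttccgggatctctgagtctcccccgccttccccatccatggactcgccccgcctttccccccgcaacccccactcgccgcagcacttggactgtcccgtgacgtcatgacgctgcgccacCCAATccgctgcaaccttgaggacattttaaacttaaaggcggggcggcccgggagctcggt
Cenpx: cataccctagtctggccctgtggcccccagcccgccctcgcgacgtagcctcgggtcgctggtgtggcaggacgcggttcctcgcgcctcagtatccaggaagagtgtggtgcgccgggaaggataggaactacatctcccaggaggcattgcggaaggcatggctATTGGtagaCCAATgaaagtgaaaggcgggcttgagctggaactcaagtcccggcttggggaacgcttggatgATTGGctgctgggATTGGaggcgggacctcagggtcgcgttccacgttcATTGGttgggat

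Ccnf, higher at 3 h by the most, holds TTTGAA beginning 130 and 14 bases before the start, and CCAAT beginning 147 and 107 bases before it. Ndc80 holds 1 CHR match, read on the other strand as TTCAAA, 29 bases after the start and no CCAAT. Cenpe holds a single CCAAT and no CHR match. Cenpx, the lowest, holds 5 CCAAT matches on the 2 strands and no CHR match. No E2F match lies in these 4 windows, which says only that those letters are not there.

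Of the 59 counted genes 52 had a promoter in the table, and where a gene had several the entry listed first was read. A CHR match (TTTGAA or TTCGAA) was present in 30 of the 52 (57.7%), against 13.2% of 7551 other genes at the floor and 19.4% of the promoters of all 27025 genes in the table. CCAAT was present in 37 (71.2%), against 38.8% of the other genes at the floor and 37.9% of all promoters. Both together were present in 27 (51.9%), against 5.34% of the other genes at the floor and 7.70% of all promoters. An E2F match was present in 12 (23.1%), against 12.9% of the other genes at the floor and 6.93% of all promoters. These shares describe letters in a window and do not show binding. The differences over time hardly separated by a CHR or CCAAT match. The median was 0.13 in the 30 genes with a CHR match and 0.10 in the 22 without one. Of the 5 genes at least 1.5-fold higher, 3 (Ccnf, Ndc80 and Plk1) had a CHR match. For CCAAT the medians were 0.13 with it and 0.09 without it. For E2F they lay further apart, at 0.04 in the 12 genes with it and 0.13 in the 40 without it, which was not tested.

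Among CDK1, its cyclins and their regulators, 6 of 8 genes were higher, with a median of 0.09. The share beside this and the later counts by role is the 51.5% of all genes at the floor that were higher. Where no gene of a group was past 1.5-fold, the share beside it is the 88.3% of all genes within 1.5-fold. Ccnf encodes cyclin F, a substrate receptor of an SCF ubiquitin ligase that limits centrosome duplication and controls ribonucleotide reductase, and it does not activate a CDK. It was at 9.04 at 3 h and 8.25 at 0 h, a difference of 0.79 or 1.73-fold, and 3.61% of all genes at the floor lay as high. The catalytic subunit gene Cdk1 was at 11.00 at 3 h and 10.82 at 0 h (0.18). The cyclin B gene Ccnb2, whose product partners CDK1 in mitosis, was at 11.29 at 3 h and 11.16 at 0 h (0.13). The cyclin A gene Ccna2, which acts from S phase to early mitosis, was at 11.44 at 3 h and 11.38 at 0 h (0.07). Cdk1, Ccnb2 and Ccna2 were thus each within 1.2-fold, and the other mitotic cyclin B gene, Ccnb1, was not analysed here. The phosphatase gene Cdc25c, whose product removes the inhibitory phosphates from CDK1, differed by 0.11, and its relative Cdc25b by -0.04. Cks2, for the small CDK-binding subunit, was at 12.55 at 3 h and 12.54 at 0 h. Cdkn3, for a phosphatase that dephosphorylates CDKs, was the lowest of the group, at 7.34 at 3 h and 7.53 at 0 h (-0.19).

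Of the mitotic kinases and the chromosomal passenger complex, 4 of 7 genes were higher, with a median of 0.23. Plk1, for the Polo kinase needed for mitotic entry, centrosome maturation and cytokinesis, was at 9.75 at 3 h and 9.10 at 0 h, 1.57-fold higher. Aurka, for the spindle pole kinase that activates PLK1, was at 10.68 at 3 h and 10.27 at 0 h (0.41). Nek2, for a kinase that separates centrosomes, was at 9.51 at 3 h and 9.15 at 0 h (0.37). These were the highest of the 7 genes. The passenger complex, which corrects faulty attachments and later directs cytokinesis, had 1 of 4 genes higher and 3 lower, with a median of -0.08. Its kinase gene Aurkb was at 9.23 at 3 h and 9.28 at 0 h (-0.05) and its scaffold gene Incenp at 7.21 at 3 h and 6.99 at 0 h (0.23). Birc5, for survivin, was at 10.95 at 3 h and 11.11 at 0 h (-0.17), and Cdca8, for borealin, at 10.77 at 3 h and 10.86 at 0 h (-0.10). The probe sets of Nek2, Aurkb and Cdca8 are of a kind that can match several genes, as are those of Cdc20, Pttg1, Cdc25c, Cks2, Cenpn and Bub1b.

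The spindle checkpoint genes were higher in 4 of 5, with a median of 0.14 and none past 1.5-fold. The median was 0.075 without Bub1b, whose probe set can match several genes. Ttk, for the kinase MPS1 that starts the checkpoint signal, was at 9.02 at 3 h and 8.72 at 0 h (0.30). Bub1b, for BUBR1, an inhibitor of the APC/C, was at 9.47 at 3 h and 9.29 at 0 h (0.18). Mad2l1, for MAD2, which binds CDC20, was at 11.53 at 3 h and 11.39 at 0 h (0.14). The kinetochore kinase gene Bub1 (-0.05) and its partner Bub3 (0.01) were nearly the same at both times.

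All 5 genes of APC/C activation and chromatid separation were higher, by 0.02 to 0.27, with a median of 0.17. Cdc20, for the APC/C coactivator that the checkpoint restrains, was at 11.86 at 3 h and 11.59 at 0 h (0.27). Pttg1, for securin, which holds separase inactive, was at 12.49 at 3 h and 12.32 at 0 h (0.17). Sgo1, for shugoshin, the protector of centromeric cohesin, was at 7.80 at 3 h and 7.58 at 0 h (0.22). Separase itself (Espl1, 0.06) and the cohesin-stabilising sororin (Cdca5, 0.02) differed least. Without the probe sets that can match several genes the median of this group was 0.06.

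**Figure D3:**
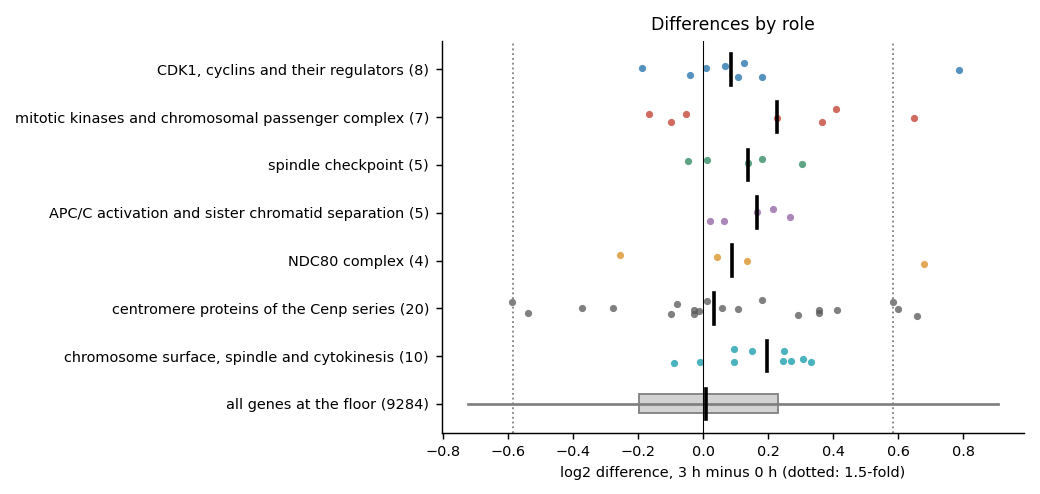
Log2 difference, 3 h minus 0 h (horizontal axis), of each counted mitosis and kinetochore gene by role, with group sizes in parentheses, black bars for medians and dotted lines at 1.5-fold. The bottom row gives all 9284 genes at the floor as the median, the quartiles (box) and the central 95% (line), and every point lies inside that line.

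The genes for the 4 subunits of the NDC80 complex, which work together in equal numbers, spread from -0.26 to 0.68, with a median of 0.09. Ndc80, for the subunit that grips the microtubule, was at 8.28 at 3 h and 7.60 at 0 h (0.68, 1.60-fold higher). Its partner Nuf2 was at 8.67 at 3 h and 8.62 at 0 h (0.04). Of the inner pair, Spc25 was at 10.42 at 3 h and 10.29 at 0 h (0.13), and Spc24 at 9.41 at 3 h and 9.67 at 0 h (-0.26). The subunit genes thus did not move as a block on these arrays, and each difference rests on 1 probe set.

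Of 20 counted Cenp genes 11 were higher and 9 lower, with a median of 0.03, nearer to that of all genes (0.01) than the 0.13 of the 39 other genes, of which 30 were higher. Without Cenpj, which could be counted only by being higher, 10 of 19 Cenp genes were higher, with a median of 0.01. The inner kinetochore network, from Cenpc1 to Cenpx without the corona and other genes named below, had 8 of 15 higher and a median of 0.01. Cenpc1, for the CENP-C protein that binds the CENP-A nucleosome, was at 8.71 at 3 h and 8.70 at 0 h. In the CENP-H/I/K/M group, Cenph (0.36), Cenpk (0.29) and Cenpi (0.18) were higher and Cenpm was lower, at 7.73 at 3 h and 8.10 at 0 h (-0.37). In the CENP-L/N pair, Cenpl was at 9.11 at 3 h and 8.52 at 0 h, a difference of 0.583 that lies just under 1.5-fold, next to Cenpj (0.598) just above it, and Cenpn differed by -0.01. The 4 genes of the CENP-O/P/Q/U group stayed closest together, between Cenpq at 0.11 and Cenpu at -0.10, with Cenpp at -0.03 and Cenpo at -0.08. The histone-fold group CENP-T/W/S/X spread widest: Cenpt was at 8.27 at 3 h and 7.86 at 0 h (0.41), Cenps (0.06) and Cenpw (-0.03) were nearly the same, and Cenpx was lowest of all. Cenpx was at 9.04 at 3 h and 9.63 at 0 h, a difference of -0.587 or 1.50-fold lower, which became -0.576 and missed 1.5-fold after removal of an intensity trend. Its product also works with that of Cenps in DNA repair outside the centromere.

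**Figure D4:**
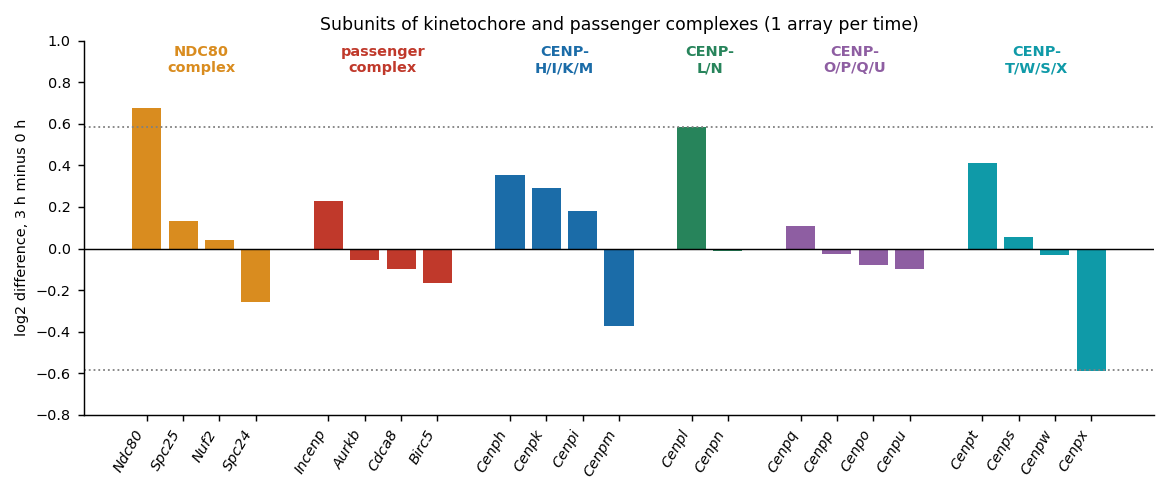
Log2 difference, 3 h minus 0 h (vertical axis), of each subunit gene of the NDC80 complex, the chromosomal passenger complex and 4 groups of the inner kinetochore (bars, 1 array per time), with dotted lines at 1.5-fold. Ndc80, Cenpl and Cenpt stand high and Spc24, Cenpm and Cenpx low within their complexes, while CENP-O/P/Q/U stays between -0.10 and 0.11.

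The corona genes, whose products load onto unattached kinetochores in mitosis, went opposite ways. Cenpe, for the kinesin that carries chromosomes to the metaphase plate, was at 6.58 at 3 h and 5.92 at 0 h (0.66, 1.58-fold higher). Cenpf, for a large coiled-coil protein of the corona, was at 8.03 at 3 h and 8.30 at 0 h (-0.28). Of the Cenp genes with other tasks, Cenpj, for a centriole assembly protein, was higher by 0.60, which became 0.55 and missed 1.5-fold after quantile normalization of both columns. Cenpb, for a protein that binds centromeric satellite DNA, was at 6.80 at 3 h and 6.44 at 0 h (0.36). Cenpv, for a protein of pericentromeric chromatin, was at 9.01 at 3 h and 9.55 at 0 h (-0.54).

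Genes of the chromosome surface, spindle and cytokinesis were higher in 8 of 10, with a median of 0.20 and none past 1.5-fold. Anln, for the contractile ring protein anillin, was at 9.51 at 3 h and 9.18 at 0 h (0.33), and Top2a, for the topoisomerase that untangles sister chromatids, at 11.72 at 3 h and 11.41 at 0 h (0.31). Prc1, for the bundler of midzone microtubules, was at 8.72 at 3 h and 8.45 at 0 h (0.27), and Tpx2, for an activator of Aurora A on the spindle, at 9.82 at 3 h and 9.57 at 0 h (0.24). Cdca2, for a chromatin-bound phosphatase subunit, differed by 0.25, and Ect2, for the exchange factor that starts furrowing, by 0.15. The spindle genes Nusap1 and Hmmr each differed by 0.09. Mki67, for the proliferation marker Ki-67 that coats mitotic chromosomes, was the same within 0.01, at 10.20 at 3 h and 10.21 at 0 h, and Cdca3, for a factor in the degradation of the mitotic inhibitor WEE1, was at 10.24 at 3 h and 10.33 at 0 h (-0.09).

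Other genes of the same processes were read from lists of the pathway. Beside their counts stand the shares of all genes at the floor, of which 51.5% were higher and 6.94% at least 1.5-fold higher. The kinesins were higher in 10 of the 10 that reached the floor, with a median of 0.53, and 5 were at least 1.5-fold higher. Among them were the depolymerising motors Kif2c, at 10.00 at 3 h and 9.37 at 0 h (0.64), and Kif2a, at 9.48 at 3 h and 8.85 at 0 h (0.63), and Kif18b (0.61), beside the 0.66 of the kinesin gene Cenpe. The probe sets of Kif2c and of Ncapd3, named next, can match several genes. With the 3 kinesins under the floor included, the median was 0.40. Of the other kinetochore and centromere loading genes 8 of 14 were higher (57.1%, near the share of all genes), with a median of 0.13. Oip5, for a CENP-A loading factor, differed by 0.54, Zwint, for a partner of the scaffold KNL1, by 0.45, and Pmf1, of the MIS12 complex, by -0.41. Cohesin and condensin genes were higher in 16 of 20 (median 0.17), with the cohesin gene Stag1 (0.66) and the condensin gene Ncapg2 (0.65) past 1.5-fold and the condensin gene Ncapd3 at 0.45. Centrosome, spindle assembly and cytokinesis genes were higher in 27 of 38 (median 0.17), with Depdc1b at 0.54, and the kinase gene Melk (-0.60) and the centriole gene Stil (-0.54) lowest. Subunits and partners of the APC/C were higher in 11 of 19 (57.9%, near the share of all genes, median 0.04) and none was past 1.5-fold. Among these, Anapc4 (0.45), Anapc10 (0.38) and Cdc16 (0.28) differed most, and the E2 enzyme gene Ube2c (0.06) and the coactivator gene Fzr1 (-0.05), for CDH1, hardly differed.

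**Figure D5:**
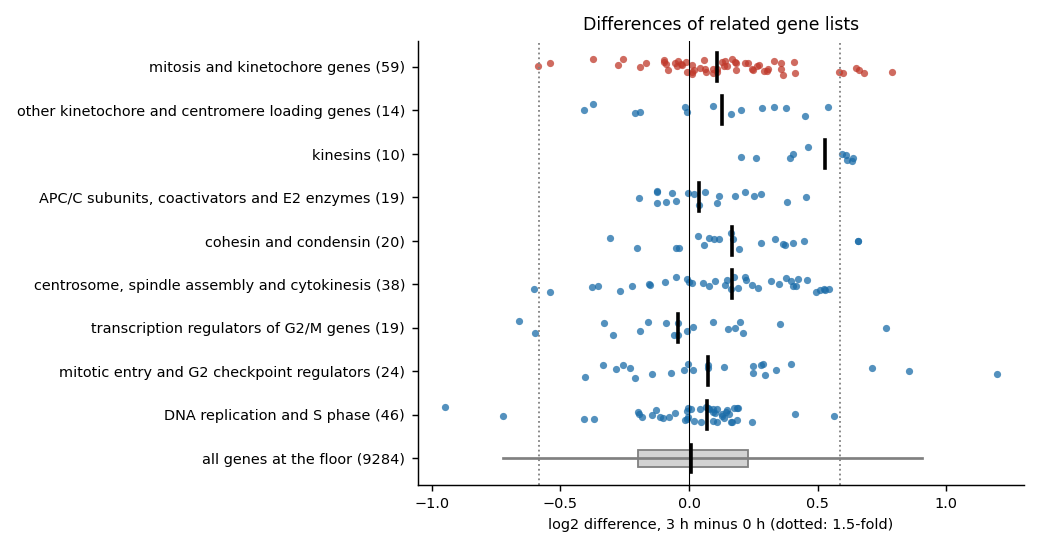
Log2 difference, 3 h minus 0 h (horizontal axis), of each counted gene (points) in the mitosis and kinetochore set (red) and in 8 related lists (blue), with the number of genes in parentheses, black bars for medians, dotted lines at 1.5-fold, and all genes at the floor in the bottom row (box for quartiles, line for the central 95%). The kinesins all lie right of 0 with a median of 0.53, the mitosis and kinetochore genes spread around 0.11, and the transcription regulators have a median of -0.04.

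The transcription factors that time these promoters showed no common direction, with 8 of 19 higher (42.1%, against 51.5% of all genes) and a median of -0.04. Foxm1, for the activator of G2 and mitosis genes, was at 7.45 at 3 h and 7.30 at 0 h (0.15). Mybl2, for B-MYB, was at 7.21 at 3 h and 7.25 at 0 h (-0.04), and Lin9, for a subunit of the MuvB core shared by the repressing and activating complexes, at 7.06 at 3 h and 7.11 at 0 h (-0.04). Other subunit genes of the DREAM complex went both ways: Rbl2, for p130, was at 7.33 at 3 h and 6.98 at 0 h (0.35), and E2f4 at 7.42 at 3 h and 7.75 at 0 h (-0.33). The atypical repressor gene E2f7 was at 7.71 at 3 h and 6.94 at 0 h (0.77). E2f3 was lower, at 7.77 at 3 h and 8.43 at 0 h (-0.66), and so was Nfya, for the subunit of NF-Y that contacts the CCAAT box, at 7.02 at 3 h and 7.61 at 0 h (-0.60).

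Regulators of mitotic entry and of the G2 checkpoint were higher in 14 of 24 (58.3%, against 51.5% of all genes at the floor), with a median of 0.07. Of these genes 2 reached the floor only at 3 h and could be counted only by being higher, and 1 reached it only at 0 h. Among the 22 that reached it at 0 h, 12 were higher, with a median of 0.04. Cdkn1a, for the CDK inhibitor p21, was at 10.06 at 3 h and 8.86 at 0 h, 2.29-fold higher. Plk2 was at 6.84 at 3 h and 5.98 at 0 h (0.86). Cdk7, for the kinase that activates CDKs, was at 8.20 at 3 h and 7.49 at 0 h (0.71), and Wee1, for the kinase that inhibits CDK1, at 7.86 at 3 h and 8.07 at 0 h (-0.21). Genes of DNA replication and S phase, the phase before, were higher in 28 of 46 (60.9%), with a median of 0.07 and a mean of 0.01. Their widest differences were those of the polymerase subunit gene Pold2 (-0.95), Dtl (-0.72), for a ubiquitin ligase receptor of S phase, and the cyclin gene Ccne2 (0.56). The differences between these lists and the mitosis and kinetochore genes could not be tested with 1 array per time.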

How the data were processed

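Expression was measured in 2 samples, 1 at 3 h and 1 at 0 h, with times taken from the titles. The deposited values are log2 expression values made by the authors with RMA and the affy package, per the submitters' processing notes. Versions and the set of arrays normalized jointly are not stated there. RMA equalises the distributions of the arrays, which hides any shift common to all transcripts, and it shrinks differences between dim signals. An array has no read depth. The table holds 20666 probe sets, of which 17918 have 1 gene in the platform annotation, 79 several and 2669 none, and only the first kind were used. Symbols were checked by Entrez ID against RefSeq genes of GRCm38.p6, which changed 0. Probe sets of a gene were averaged (43 of 17874 genes, none of them described as mitosis or kinetochore genes here).

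Counts and medians were taken over genes at the floor of 5.70, with no test and no p-value. Alternatives were quantile normalization of both columns, loess removal of an intensity trend (span 0.3), only the brightest probe set of each gene, no probe sets ending in _s_at or _x_at, no floor, a floor of 8, a mean instead of a median, and removal of Cenpb, Cenpj, Cenpv and Cenpe. Leaving out Sgo1 was chosen after seeing the data. The members, lists and thresholds were chosen with earlier results of these data known. Every mitosis and kinetochore gene could be named, of each pathway list the 3 genes with the widest difference, and Foxm1, Mybl2, Lin9, Cdkn1a, Wee1, Ube2c and Fzr1 whatever their values. Of each marker list the 2 widest could be named. Epor, Myb, Kit, Gfi1b, Vcam1, Camp, Lcn2, Ngp, Rbl2, E2f4 and the macrophage genes under the floor were named after their values were seen. The steps were tested on simulated data with large differences called at 2-fold, which checks nothing about the smaller differences described here. Python 3.11.15 was used, along with the packages numpy (2.4.6), pandas (2.3.3), statsmodels (0.14.6) and, for figures, matplotlib (3.10.9).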

Additional observations from a re-analysis of the deposited data

How the results depend on the processing

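The median difference of the mitosis and kinetochore genes ran from 0.11 to 0.13 under the alternatives tried, and the genes higher at 3 h numbered 34 of 48 with a floor of 8 and 42 of 59 with an intensity trend removed. The count at least 1.5-fold higher was 3 with a floor of 8, which sets aside genes with dim signals by construction, against 5 with the floor of 5.70, 6 with an intensity trend removed and 4 after quantile normalization. The count at least 1.5-fold lower was 0 with an intensity trend removed. The median of the APC/C activation and sister chromatid separation group was 0.063 without probe sets that can match several genes, that of the spindle checkpoint genes 0.075 and that of the APC/C subunits 0.0078 under the same setting. The median of the kinesins was 0.40 with no floor, and that of the mitotic entry and G2 checkpoint regulators 0.044 with a floor of 8. For the mitotic kinases and passenger complex the median ran from 0.16 with a floor of 8 to 0.32 without probe sets that can match several genes. The median of the Cenp genes lay between -0.00057 and 0.06, so its sign is not settled. Of 666 values of 100 named genes under the alternatives, 3 changed sign, in Cenpc1 and Mki67, which differed by at most 0.01. For a gene with 1 probe set, only quantile normalization and removal of an intensity trend can change its value. Most of the 666 values therefore could not change, and the count is no measure of stability. No paired analysis was possible because each time has 1 array. Without replicates, no value can be told from the variation between samples.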
